A study of Rattus norvegicus with 325 samples.

Results

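Scn4a, Scn4b, Scn3b and Scn2b, a gene for the pore-forming subunit of a voltage-gated sodium channel and 3 genes for beta subunits, were followed in the muscles of ageing rats. They were chosen by name and make up 4 of the 17315 gene symbols counted. The study compared diaphragm, gastrocnemius, soleus and tibialis anterior of untreated male Sprague Dawley rats at 7 ages (6, 9 and 12 months, 18 and 21 months, 24 and 27 months) by RNA sequencing, to find genes whose expression moves with age in each muscle. No transgene, deletion or drug was named for any group, so a group is defined by its muscle and age alone. There were 325 libraries in 28 groups of 9 to 13, namely 83 of diaphragm, 73 of gastrocnemius, 84 of soleus and 85 of tibialis anterior.

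Voltage-gated sodium channels open when the muscle fibre membrane is depolarised and carry the action potential from the neuromuscular junction along the fibre and into the transverse tubules. Scn4a encodes the main pore-forming (alpha) subunit of adult skeletal muscle, and mutations in it cause myotonia and periodic paralysis. The beta subunits are single-pass membrane proteins that tune gating and surface expression of the pore. The products of Scn2b and Scn4b bind the alpha subunit through a disulfide bond, whereas that of Scn3b binds it without one. The product of Scn4b can also block the open pore and give rise to resurgent current.

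In the current rat annotation Scn4a lay on chromosome 10, while the other 3 genes were on chromosome 8, where Scn2b and Scn4b were immediate neighbours. The promoters of Scn4a and Scn4b are shown because the results turn mainly on the levels of these 2 genes. Both are the 250 bases before the annotated start in RefSeq on build GRCr8, 5′ to 3′ on the strand of the gene. Capitals mark each match to CANNTG, the E-box read by myogenic regulatory factors such as myogenin. The motif reads the same on both strands as written.
Scn4a, chr10:91796325-91796574, minus strand: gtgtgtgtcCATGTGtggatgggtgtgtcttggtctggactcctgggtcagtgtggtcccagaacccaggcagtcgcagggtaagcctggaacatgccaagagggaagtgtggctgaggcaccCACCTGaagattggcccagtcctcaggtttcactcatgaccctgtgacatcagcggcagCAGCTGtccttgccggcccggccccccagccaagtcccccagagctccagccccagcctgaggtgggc
Scn4b, chr8:54343623-54343872, plus strand: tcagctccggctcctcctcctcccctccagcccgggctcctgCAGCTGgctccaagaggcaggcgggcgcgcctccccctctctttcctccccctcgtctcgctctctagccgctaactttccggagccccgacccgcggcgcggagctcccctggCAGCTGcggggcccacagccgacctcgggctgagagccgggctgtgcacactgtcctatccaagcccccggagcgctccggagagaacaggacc

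The Scn4a window held 3 matches and the Scn4b window held 2, and the window of Scn2b also held 3. At least 2 matches were present in 30.8% of the 33469 promoter windows of the same length, and at least 3 in 11.6%. G and C made up 62.8% of the Scn4a window, 71.6% of the Scn4b window and 38.8% of the Scn2b window. A match is a description of the letters and does not show that a factor binds there.

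Each library held between 17555294 and 85316329 counted reads. Levels are given in CPM, the usual count relative to library total, scaled so that the bulk of genes keeps the same level across libraries. A gene was called changed where its adjusted p was under 0.05 and its level differed by more than 1.5-fold. The muscle labels were checked against myosin heavy chain genes. Myh7, the slow isoform, had a median of 47510 CPM in soleus against 2204 CPM in tibialis anterior. Conversely Myh4, the fastest isoform, had a median of 14.2 CPM in soleus and 77730 CPM in tibialis anterior. Over all genes, 3 libraries stood apart from their groups, namely diaphragm 18 months replicate 11, tibialis anterior 24 months replicate 6 and tibialis anterior 21 months replicate 7. Each library of a group came from a different rat, per the study, but the labels do not tie libraries of different muscles to a rat. All muscles of an age group were collected on a single day, so age and collection day cannot be told apart.

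Between 6 and 27 months the 4 genes did not move as a group. Scn4b fell by 1.81- to 1.96-fold in the 3 limb muscles, Scn3b rose in gastrocnemius and tibialis anterior, and Scn4a was lower in the limb muscles by less than 1.5-fold. In the diaphragm none of the 3 genes that could be tested was called. Scn2b was close to the detection limit everywhere and fell below the count filter in each muscle. The genes called were 2 of 3 tested in gastrocnemius, 1 of 3 in soleus, 2 of 3 in tibialis anterior and 0 of 3 in diaphragm. Of all genes tested in these muscles, 22.8%, 15%, 27.6% and 7.52% were called.

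**Figure D1:**
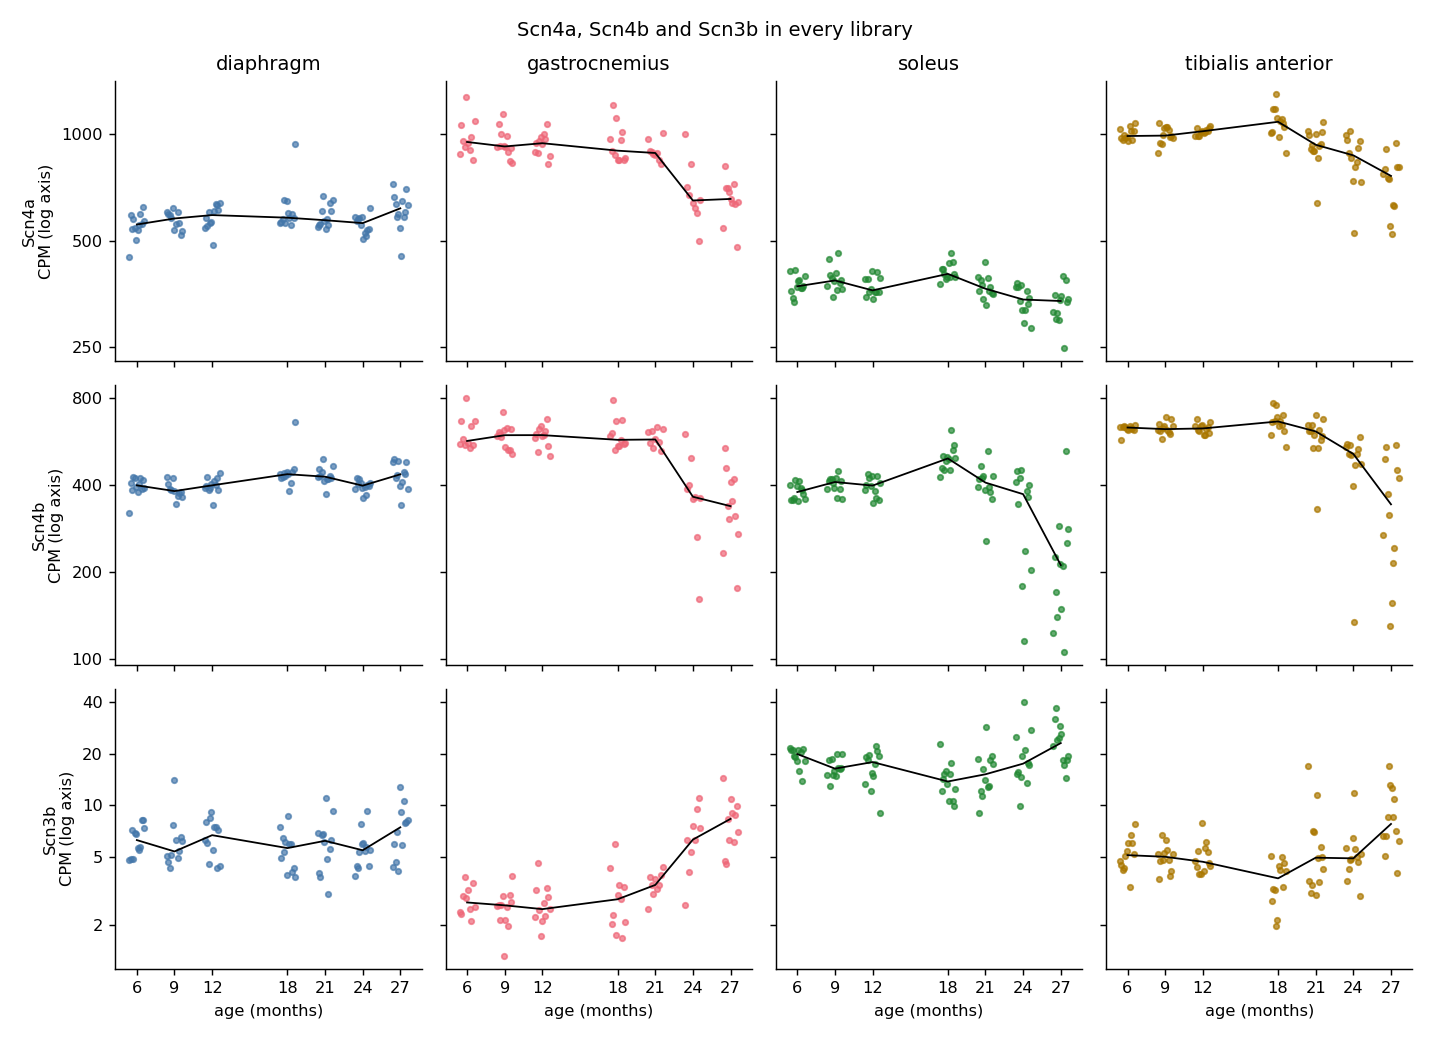
Level of Scn4a, Scn4b and Scn3b (CPM, log axis) against age in months in each muscle. Each point is a library and the line joins the group medians. Scn4b in tibialis anterior went from a median of 632 CPM at 6 months to 343 CPM at 27 months, and the points of the later ages spread downwards.

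Scn4a, the alpha subunit gene, was higher in the fast limb muscles of young rats than in their diaphragm and soleus. At 6 months it ranged from 961 to 1074 CPM in tibialis anterior (median 990, n = 12) and from 847 to 1278 CPM in gastrocnemius (median 952, n = 10). Diaphragm libraries ranged from 450 to 622 CPM (median 555, n = 12) and soleus libraries from 336 to 413 CPM (median 371, n = 12). The ranges of both fast muscles lay above those of diaphragm and soleus.

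At 27 months Scn4a ranged from 480 to 813 CPM in gastrocnemius (median 656, n = 11), and each of the 11 libraries was below the lowest at 6 months. In tibialis anterior it ranged from 521 to 945 CPM (median 763, n = 12), again with no overlap with 6 months. The log2 change was -0.58 in gastrocnemius (SE 0.072, adjusted p = 1.9e-10) and -0.45 in tibialis anterior (SE 0.069, adjusted p = 2.0e-08). These are folds of 1.49 and 1.37, so both passed the test and neither passed the fold threshold. The value of gastrocnemius lay so close to that threshold that 9 of the 21 fits without a single library put it past 1.5-fold.

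In soleus Scn4a ranged from 247 to 397 CPM at 27 months (median 337, n = 12), with 6 of 12 libraries below the 6-month range. Its log2 change there was -0.18 (SE 0.047, adjusted p = 1.2e-03). Diaphragm libraries ranged from 453 to 723 CPM (median 617, n = 12) and overlapped with those of 6 months, with a log2 change of 0.10 (95% interval 0.0046 to 0.20, adjusted p = 0.086).

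Scaling matters for these sizes. With plain division by the total count in place of the scaling above, the median change of all genes moved from 0.042 to 0.32 in gastrocnemius, from 0.019 to 0.16 in soleus and from 0.015 to 0.34 in tibialis anterior. On that scale Scn4a changed by -0.30 in gastrocnemius, -0.13 in tibialis anterior and -0.03 in soleus, each below the median of all genes in its muscle. In bulk tissue, fewer fibres of a type and less RNA per fibre cannot be told apart.

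Scn4b, the gene of the beta subunit linked to resurgent current, fell in the 3 limb muscles. At 6 months the 12 tibialis anterior libraries were tightly grouped between 571 and 643 CPM (median 632). At 27 months they ranged from 130 to 549 CPM (median 343), all 12 below the 6-month range. The log2 change was -0.97 (SE 0.14, fold 1.96, adjusted p = 7.2e-09).

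In gastrocnemius Scn4b went from 536 to 802 CPM at 6 months (median 568, n = 10) to 176 to 536 CPM at 27 months (median 338, n = 11). Of the 11 old libraries 10 were below the 6-month range. Its log2 change was -0.86 (SE 0.12, fold 1.81, adjusted p = 9.4e-09). With total-count scaling this change was -0.57, just short of 1.5-fold.

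Soleus libraries held 353 to 417 CPM of Scn4b at 6 months (median 378, n = 12) and 106 to 526 CPM at 27 months (median 211, n = 12). Here 11 of 12 old libraries were below the young range, and 1, replicate 9, was above it. The log2 change was -0.88 (SE 0.14, fold 1.84, adjusted p = 2.1e-07). In the diaphragm the 2 ages overlapped, with 319 to 425 CPM at 6 months (median 399, n = 12) and 341 to 494 CPM at 27 months (median 436, n = 12). The change there was 0.09 (95% interval -0.0025 to 0.18, adjusted p = 0.11).

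The libraries of old limb muscle also spread far more than those of young muscle. In tibialis anterior the SD of log2 Scn4b was 0.045 at 6 months and 0.70 at 27 months, and in soleus it went from 0.091 to 0.64. Gastrocnemius went from 0.19 to 0.46, while diaphragm went from 0.11 to 0.16. The highest old library was replicate 9 in both tibialis anterior and soleus, at 549 and 526 CPM, close to or above the young levels. Over all genes these libraries also lay far from their group mean. Their distance was 2.12 times the median distance of libraries in tibialis anterior and 1.90 times that in soleus. These differences in spread were not tested.

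**Figure D2:**
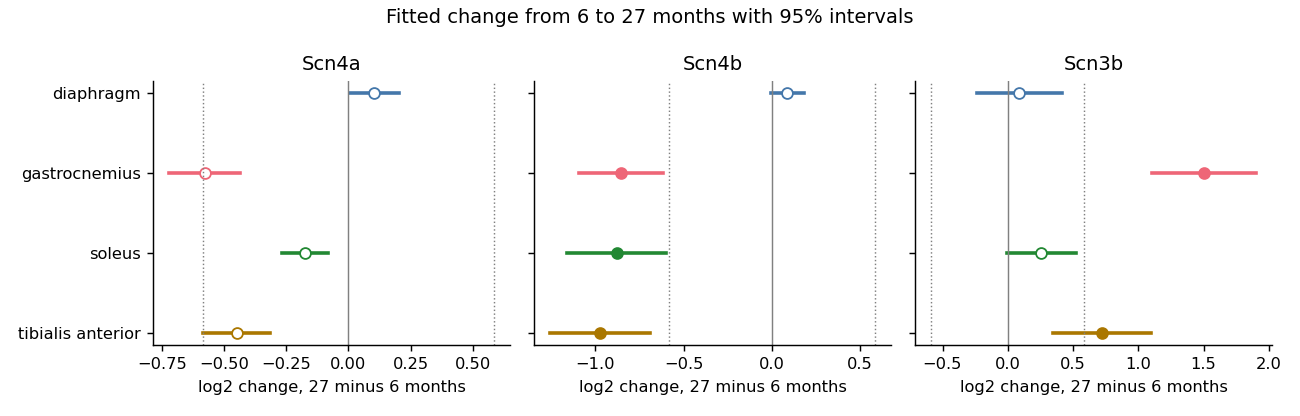
Log2 change from 6 to 27 months of Scn4a, Scn4b and Scn3b in each muscle, with 95% intervals from limma-voom. Filled points were called and dotted lines mark 1.5-fold. Scn4b lay between -0.97 and -0.86 in the 3 limb muscles and at 0.09 in diaphragm.

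Scn3b, the gene of a beta subunit best known from neurons, was measured at far lower levels and rose in 2 muscles. In gastrocnemius it ranged from 2.11 to 3.78 CPM at 6 months (median 2.70, n = 10) and from 4.56 to 14.3 CPM at 27 months (median 8.32, n = 11). The groups did not overlap. Its log2 change was 1.503 (SE 0.20, fold 2.84, adjusted p = 2.1e-09).

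In tibialis anterior the range of Scn3b was 3.33 to 7.81 CPM at 6 months (median 5.10, n = 12) and 3.99 to 17.0 CPM at 27 months (median 7.77, n = 12). These groups overlapped, with 6 of 12 old libraries above the young range. The log2 change was 0.72 (SE 0.19, fold 1.65, adjusted p = 5.7e-04). Under Bonferroni adjustment this call was lost.

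Soleus held the highest Scn3b of the 4 muscles, from 13.8 to 21.6 CPM at 6 months (median 19.9, n = 12) and from 14.5 to 37.0 CPM at 27 months (median 23.1, n = 12). The groups overlapped, and the log2 change was 0.26 (95% interval -0.0090 to 0.52, adjusted p = 0.10). Diaphragm libraries ranged from 4.78 to 8.18 CPM at 6 months (median 6.25, n = 12) and from 4.12 to 12.8 CPM at 27 months (median 7.42, n = 12), with a change of 0.09 (95% interval -0.24 to 0.42, adjusted p = 0.70).

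Because Scn3b is best known from neurons, 7 neuronal markers (Snap25, Tubb3, Nefl, Nefm, Nefh, Prph and Stmn2) were read beside it. Their summed level in gastrocnemius ranged from 3.69 to 5.37 CPM at 6 months and from 7.74 to 12.4 CPM at 27 months, and 3 of 5 tested markers rose while 1 fell. In tibialis anterior the sum went from 3.83 to 6.64 CPM to 5.66 to 11 CPM, with 2 of 4 markers higher. It also went up where Scn3b was not called, from 3.14 to 5.60 CPM to 4.75 to 8.58 CPM in diaphragm with 5 of 6 markers higher, and from 7.52 to 15.3 CPM to 10 to 23.8 CPM in soleus with 3 of 6 higher and 1 lower. The share of all genes that rose was 15.1% in gastrocnemius, 17.2% in tibialis anterior, 3.27% in diaphragm and 9.21% in soleus. None of the 7 markers was at 0 in every library of a muscle. The part of these markers in the Scn3b result was not tested.

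Scn2b, whose product is known mainly from neuronal and cardiac channels, gave from 0 to 43 counts per library. Its median count was 6 in diaphragm and 3 in each limb muscle. No count was seen in 1 of 83 diaphragm, 5 of 73 gastrocnemius, 13 of 84 soleus and 14 of 85 tibialis anterior libraries. A count of 0 allows up to 3 counts, which is 0.0648 to 0.134 CPM in those 33 libraries, and these limits cover counting error only.

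Group medians of Scn2b lay between 0.0444 and 0.244 CPM. Summed over the libraries of a group, counts from 6 to 27 months went from 76 to 62 in diaphragm, from 29 to 48 in gastrocnemius, from 33 to 83 in soleus and from 27 to 36 in tibialis anterior. In soleus, 5 of the 12 libraries at 27 months were above the highest at 6 months, which was 0.230 CPM. With no filter on low counts the log2 change was 1.36 in soleus (SE 0.53, adjusted p = 0.033), 0.98 in tibialis anterior (SE 0.48, adjusted p = 0.069), 0.48 in gastrocnemius (SE 0.46, adjusted p = 0.42) and -0.55 in diaphragm (SE 0.39, adjusted p = 0.29).

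**Figure D3:**
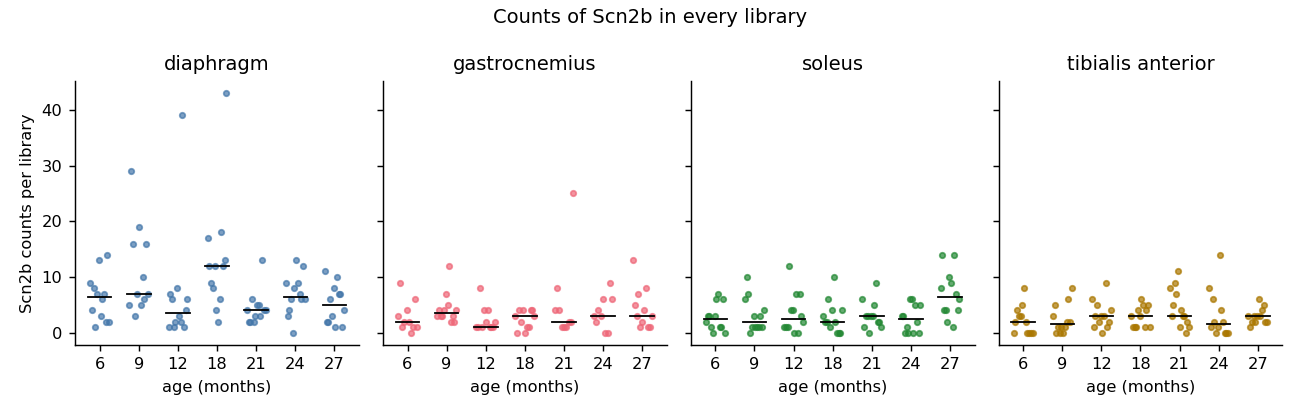
Raw counts of Scn2b in each library against age in months, by muscle, with bars at the group medians. Counts ran from 0 to 43 per library, and the 12 soleus libraries of 27 months summed to 83 counts against 33 at 6 months.

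Up to 18 months no change from 6 months was called. At 9 and 12 months the 24 changes of Scn4a, Scn4b and Scn3b from 6 months lay between -0.23 and 0.09 on the log2 scale and none was called. In diaphragm, soleus and tibialis anterior the libraries of 12 months had another series of running numbers than those of 6 months. Age and series cannot be told apart in that comparison. Of all genes tested, those called at 9 months made up 0.108%, 0.143%, 0.123% and 0.00851% in diaphragm, gastrocnemius, soleus and tibialis anterior, and at 12 months 0.532%, 0.885%, 0.353% and 0.196%. At 18 months the shares of all genes called were 2.25%, 4.32%, 2.84% and 5.45%, and a few small changes of the sodium channel genes passed the adjusted p alone. Scn4b was higher in soleus by 0.39 (SE 0.14, adjusted p = 0.039), with all 12 libraries above the 6-month range, and in diaphragm by 0.16 (SE 0.047, adjusted p = 9.8e-03). Scn3b was lower in soleus by -0.49 (SE 0.15, adjusted p = 0.010). Scn4a was higher by 0.14 in diaphragm and by 0.13 in soleus. So Scn4b of soleus was at its highest median, 494 CPM, at 18 months and at its lowest at 27 months.

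In gastrocnemius the calls between consecutive ages fell at the step from 21 to 24 months. From 21 to 24 months its Scn4b fell, with a log2 change of -0.70 (SE 0.13, adjusted p = 5.5e-05) and its Scn3b rose, with a change of 0.80 (SE 0.21, adjusted p = 2.8e-03), where 6.72% of all genes were called. At 24 months Scn4b ranged from 161 to 602 CPM (median 364, n = 9), with 8 of 9 libraries below the 6-month range. Scn4a changed by -0.39 over the same step (adjusted p = 8.9e-05). From 24 to 27 months the 3 genes changed by -0.10 for Scn4b, 0.37 for Scn3b and -0.05 for Scn4a, none called, against 0.624% of all genes.

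In soleus and tibialis anterior Scn4b was lower at the last step. From 24 to 27 months Scn4b changed by -0.54 in tibialis anterior (SE 0.14, adjusted p = 1.4e-03) and by -0.58 in soleus (SE 0.14, adjusted p = 8.1e-04), each short of 1.5-fold. With RLE scaling the soleus value was -0.59 and called. Over the settings run, this change lay between -0.77 and -0.49 in soleus and between -0.69 and -0.40 in tibialis anterior. Both ranges reached past 1.5-fold. Scn3b of tibialis anterior was called higher both from 18 to 21 months (0.66, SE 0.22, adjusted p = 0.016) and from 24 to 27 months (0.65, SE 0.19, adjusted p = 2.9e-03), where 1.97% and 6.08% of all genes were called. The first of these steps was 0.42 (adjusted p = 0.10) once libraries were weighted by quality, and Bonferroni adjustment ended the Scn3b calls at single steps.

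At 24 months against 6 months only gastrocnemius had calls, Scn4b at -0.76 (SE 0.13, adjusted p = 8.1e-07) and Scn3b at 1.14 (SE 0.22, adjusted p = 1.1e-05), while 18.8% of all genes were called there. With total-count scaling the Scn4b change was -0.49 for this comparison and -0.56 from 21 to 24 months, and both calls were lost. In tibialis anterior Scn4b changed by -0.44 (SE 0.15, adjusted p = 9.3e-03) and Scn3b by 0.07 at that age, where 14.5% of genes were called. The shares called in soleus and diaphragm were 6.51% and 2.68%. Whether the timing differed between muscles was not tested.

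A choice between no trend, a line and a logistic step over the 7 ages described each gene over all libraries of a muscle. Scn4a was put in the late-falling class, with an inflection after 21 months, in gastrocnemius (22 months), soleus (21.8 months) and tibialis anterior (23.5 months). Scn4b was late-falling in the same muscles, at 22.8, 24.3 and 24.8 months. Scn3b was late-rising in gastrocnemius (22.5 months) and tibialis anterior (25.5 months). No trend was chosen for any of the 3 genes in diaphragm or for Scn3b in soleus. Late-falling genes made up 10.2%, 11.1% and 18.7% of all genes in gastrocnemius, soleus and tibialis anterior, and late-rising genes 7.37% and 13.8% in gastrocnemius and tibialis anterior. A stricter BIC margin of 10 left no trend for Scn3b in tibialis anterior. Total-count scaling left none for Scn4a in soleus and gave a linear rise of Scn4b in diaphragm and a late rise of Scn3b in soleus.

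The change with age differed between the limb muscles and the diaphragm by a test of the difference itself. For Scn4b, the change in gastrocnemius minus that in diaphragm was -0.99 (SE 0.18, adjusted p = 5.7e-07), for soleus it was -1.02 (SE 0.17, adjusted p = 2.2e-07) and for tibialis anterior -1.12 (SE 0.17, adjusted p = 8.0e-09). Among the limb muscles the 3 differences of Scn4b lay between -0.12 and -0.028, with 95% intervals inside -0.48 to 0.32. All genes called for a different change from diaphragm made up 21.6% in gastrocnemius, 11.9% in soleus and 20.3% in tibialis anterior.

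For Scn4a the differences from diaphragm were -0.73 in gastrocnemius (SE 0.091, adjusted p = 8.5e-13) and -0.60 in tibialis anterior (SE 0.088, adjusted p = 6.9e-10), both called, and -0.34 in soleus (adjusted p = 7.5e-04), short of 1.5-fold. The 2 called differences kept their sign but fell under 1.5-fold with total-count scaling. Scn3b of gastrocnemius stood out, with a change 1.37 above that of diaphragm (SE 0.30, adjusted p = 2.9e-05), 1.25 above that of soleus (SE 0.27, adjusted p = 5.0e-05) and 0.78 above that of tibialis anterior (SE 0.31, adjusted p = 0.043). Of all genes, 14.5% differed in change between soleus and gastrocnemius and 7.32% between tibialis anterior and gastrocnemius. Bonferroni adjustment ended the calls of Scn3b in this paragraph. Gastrocnemius libraries carried their own series of running numbers in the labels, so muscle and series cannot be told apart in comparisons with gastrocnemius.

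Scn2b entered the joint fit only through the diaphragm, where it is highest. Of the 20 libraries that reached the filter's level of 0.314 CPM, 13 were of diaphragm, and at least 9 were needed. Its differences from diaphragm are therefore given as values with no test. The change from 6 to 27 months was above that of diaphragm by 1.85 in soleus (SE 0.61), 1.48 in tibialis anterior (SE 0.65) and 1.05 in gastrocnemius (SE 0.65), and edgeR gave 0.95 for tibialis anterior.

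Young muscles differed in level as well, as they did for many genes. Of 12784 genes, 5799 were called at 6 months for soleus minus gastrocnemius and 5483 for tibialis anterior minus soleus. Gastrocnemius minus diaphragm had 4772 genes called and soleus minus diaphragm 3049. At 6 months Scn4a was lower in soleus than in gastrocnemius by -1.38 on the log2 scale, and in tibialis anterior it was higher than in soleus by 1.42, while gastrocnemius and tibialis anterior differed by 0.04 (adjusted p = 0.69). Scn4b showed a smaller difference in the same direction, -0.67 for soleus minus gastrocnemius and 0.72 for tibialis anterior minus soleus. With total-count scaling these Scn4b differences were -0.28 and 0.31 and were not called. Scn3b had the reverse order, with soleus above gastrocnemius by 2.80, above diaphragm by 1.62 and above tibialis anterior by 1.93. At 27 months gastrocnemius and diaphragm differed in Scn4a by 0.10, against 0.83 at 6 months (0.39 with total-count scaling). At 27 months soleus had the lowest median of Scn4a and Scn4b and the highest of Scn3b. Scn2b at 6 months was lower than in diaphragm by -1.05 in gastrocnemius, -1.34 in soleus and -1.63 in tibialis anterior, on the few counts given above. Across the 28 groups ranked by median level, the ranges of all 27 neighbouring pairs overlapped for each gene.

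Within the 27-month libraries of a muscle, those with less Scn4b also had less Scn4a. In tibialis anterior Pearson's r was 0.954 (permutation adjusted p = 4e-04) and Spearman's rho 0.944 (permutation adjusted p = 0.0016, n = 12), and r was 0.913 without the 2 libraries farthest from the median. In gastrocnemius r was 0.913 (permutation adjusted p = 0.0032) and rho 0.80 (permutation adjusted p = 0.058, n = 11), with r of 0.753 without 2 libraries. Soleus gave an r of 0.609 and diaphragm 0.745, neither passing the adjustment over the 40 relations computed (permutation adjusted p = 0.145 and 0.051, n = 12 each). Diaphragm dropped to 0.379 without 2 libraries. With total-count scaling r was 0.888 in tibialis anterior, 0.791 in gastrocnemius (0.221 without 2 libraries, with rho of 0.545), 0.602 in diaphragm and 0.175 in soleus, so the relation in gastrocnemius rests on 2 libraries under that scaling. The 24-month libraries gave r of 0.922 in gastrocnemius, 0.912 in tibialis anterior and 0.845 in soleus (permutation adjusted p = 0.0082, 0.0006 and 0.007), and 0.642 in diaphragm (permutation adjusted p = 0.063).

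**Figure D4:**
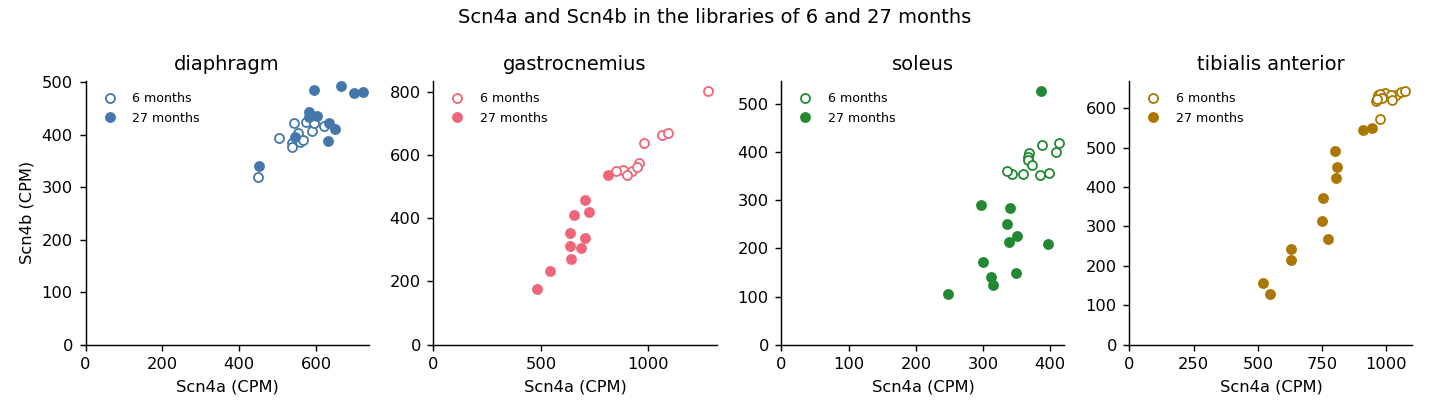
Scn4b against Scn4a (CPM, linear axes from 0) in each library of 6 months (open) and 27 months (filled), by muscle. In tibialis anterior the 27-month libraries ran from 521 to 945 CPM of Scn4a and from 130 to 549 CPM of Scn4b, with r of 0.954 between the log2 values.

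Chrnd, the delta subunit of the muscle acetylcholine receptor and a gene known to rise when a fibre loses its nerve, was set beside the channel genes. Its median went from 6.66 to 213 CPM in tibialis anterior, from 10.1 to 107 CPM in gastrocnemius, from 42.7 to 117 CPM in soleus and from 18.2 to 63.2 CPM in diaphragm between 6 and 27 months. Across the 27-month tibialis anterior libraries Scn4b and Chrnd gave r of -0.752 (permutation adjusted p = 0.051) and rho of -0.832 (permutation adjusted p = 0.024, n = 12). Scn4a and Chrnd gave -0.729 (permutation adjusted p = 0.051, n = 12). In the other 3 muscles at 27 months the relation of Scn4b and Chrnd had r between -0.581 and -0.0056 and did not pass. At 24 months it passed in gastrocnemius (r -0.893, permutation adjusted p = 0.0029). In tibialis anterior at 24 months Scn4b and Chrnd passed by rho (-0.825, permutation adjusted p = 0.014) but not by r (-0.444, permutation adjusted p = 0.228). Scn4a with Chrnd passed by r at 24 months in gastrocnemius (r -0.817), soleus (r -0.754) and tibialis anterior (r -0.685), each with a permutation adjusted p of 0.0199.

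At 27 months no relation of Scn3b or Scn2b passed the adjustment in any muscle. With total-count scaling, Scn3b with Scn4a passed in gastrocnemius (r -0.798) and tibialis anterior (r -0.772), and Scn3b with Scn4b in the same muscles (r -0.746 and -0.805). At 24 months Scn3b was negatively related to Scn4b in tibialis anterior (r -0.884, permutation adjusted p = 0.0006), gastrocnemius (r -0.863) and soleus (r -0.772), the last 2 with a permutation adjusted p of 0.0137. Scn3b with Scn4a gave r of -0.88 in gastrocnemius and -0.831 in tibialis anterior at that age (permutation adjusted p = 0.0137 each), and with Chrnd 0.891 in gastrocnemius (permutation adjusted p = 0.0079).

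The genes whose group means were most like those of Scn4a over the 28 groups, among 10406 genes, were Ckm (r 0.995), Gpi (r 0.994) and Pkm (r 0.994). Ckm encodes muscle creatine kinase, and Gpi and Pkm encode glycolytic enzymes. Closest to Scn4b were Fsd2 (r 0.960), Pdk2 (r 0.949) and Ttc7b (r 0.947). Scn3b was nearest to Cstf2 (r 0.975), LOC100911664 (r 0.968) and Gstcd (r 0.965), and Scn2b to Cpxm1 at 0.807. The 28 means share muscles and libraries, so these are descriptions.

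Of 10 other sodium channel genes, 7 or 8 were tested per muscle. From 6 to 27 months 1 rose and 1 fell in diaphragm, 2 rose and 1 fell in gastrocnemius, 1 rose in soleus, and 2 rose and 1 fell in tibialis anterior. The shares of all genes called in these muscles, in that order, were 7.52%, 22.8%, 15% and 27.6%. Scn1a, an alpha subunit gene best known from neurons, rose in gastrocnemius from 28.5 to 41.5 CPM (0.67, SE 0.17) and in tibialis anterior from 7.72 to 18.2 CPM (1.39, SE 0.21). In the 2 muscles where Scn1a was higher its median went down, from 106 to 79.9 CPM in diaphragm and from 190 to 166 CPM in soleus. It was not called there. Scn7a, which encodes a sodium-sensing channel, fell in diaphragm from 29.1 to 18.0 CPM (-0.68, SE 0.12). Its median went from 8.41 to 10.7 CPM in gastrocnemius, from 12.1 to 14.6 CPM in tibialis anterior and from 17.2 to 15.7 CPM in soleus, none called.

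Genes that anchor, modify or remove sodium channels moved in both directions. Of 12 such genes 9 or 10 were tested per muscle, and none changed in diaphragm, 2 rose and 2 fell in gastrocnemius, 4 rose in soleus, and 2 rose and 2 fell in tibialis anterior. Beside these counts, 7.52%, 22.8%, 15% and 27.6% of all genes were called in the 4 muscles in that order. Dmd, the gene of dystrophin, rose in gastrocnemius by 1.55, in tibialis anterior by 0.76 and in soleus by 0.73. Nedd4, a ubiquitin ligase, rose by 0.63 in gastrocnemius and 0.72 in soleus. The syntrophin gene Sntb1 fell in gastrocnemius (-1.39) and tibialis anterior (-1.45) and rose in soleus (1.23). Ank3, which encodes the anchor protein ankyrin G, fell in tibialis anterior (-0.60). Fgf11 rose in soleus (2.31) and tibialis anterior (0.90) from levels under 2 CPM. The list's median change was -0.076, 0.12, 0.54 and 0.19 in diaphragm, gastrocnemius, soleus and tibialis anterior, where that of all genes was 0.0026, 0.042, 0.019 and 0.015.

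A second list held 8 genes of membrane excitability, all tested in every muscle. None rose or fell in diaphragm or soleus, and 4 fell and none rose in both gastrocnemius and tibialis anterior. The share of all genes that fell was 7.76% in gastrocnemius and 10.4% in tibialis anterior, 4.25% in diaphragm and 5.78% in soleus. Among the genes of the list that fell were the 3 described next. Atp1b2, a beta subunit of the sodium pump, fell by 1.32 in gastrocnemius and by 1.58 in tibialis anterior. Cacna1s, the calcium channel that senses voltage in the transverse tubule, fell by 0.90 and 0.73. Clcn1, the chloride channel that sets resting conductance, fell by 0.71 and 0.85. The list's median change was -0.62 in gastrocnemius and -0.58 in tibialis anterior, against 0.042 and 0.015 for all genes.

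Markers of fibre type and of other cells were read beside these results. Of all genes tested, 3.27% rose and 4.25% fell in diaphragm, 15.1% and 7.76% in gastrocnemius, 9.21% and 5.78% in soleus, and 17.2% and 10.4% in tibialis anterior. Of 9 denervation-responsive genes, 9 rose in each limb muscle and 8 in diaphragm, with median log2 changes of 3.34 in gastrocnemius, 1.81 in soleus, 4.49 in tibialis anterior and 1.25 in diaphragm. The summed level of 7 fast-fibre genes ranged from 156100 to 177900 CPM in tibialis anterior at 6 months and from 57430 to 148900 CPM at 27 months. Of these genes 2 fell there (median change -0.39), 3 fell in gastrocnemius (median -0.49), 6 rose in soleus (median 3.08) and 1 rose in diaphragm (median 0.032).

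Of 6 slow-fibre genes 2 fell in tibialis anterior (median -0.51), where their summed level had a median of 2877 CPM at 6 months and 1359 CPM at 27 months. None was called in soleus (median -0.34), gastrocnemius (median -0.017) or diaphragm (median 0.17). All 6 macrophage markers rose in gastrocnemius (median 0.93) and tibialis anterior (median 1.37), 1 in soleus (median 0.51) and none in diaphragm (median 0.38). Of 5 adipocyte markers 4 rose in each limb muscle, with medians of 1.13 in gastrocnemius, 1.30 in soleus and 1.60 in tibialis anterior, and none in diaphragm (median 0.0085). Schwann cell markers rose in 2 of 8 tested in gastrocnemius, where 2 fell (median -0.12), in 2 of 8 in soleus (median 0.11) and in 3 of 8 in tibialis anterior (median 0.41). None of 9 was called in diaphragm (median -0.16). The part of these markers in the sodium channel results was not tested.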

How the data were processed

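RNA was extracted from each muscle, depleted of ribosomal RNA, made into stranded libraries and sequenced in pairs. Raw counts per gene were deposited by the authors, who aligned reads to a rat genome and a RefSeq-based gene model with ArrayStudio. The libraries were made with Kapa RNA HyperPrep and FastSelect kits, and the study calls its rat reference B6.0. Versions and settings of the aligner are not given in the sources used here. Each of the 325 libraries had 17870 gene lines, and lines that shared a symbol (494 symbols) were summed. No 2 libraries held identical counts.

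Counts were tested per muscle with limma-voom (limma 3.58.1, edgeR 4.0.16, R 4.3.3) after TMM scaling and a filter (minimum count 10, minimum total 15). All ages of the muscle shared a fit, and p-values were adjusted by Benjamini-Hochberg over all genes tested (11754 to 12175). Differences between muscles came from a joint fit of 28 groups and 12784 genes. A call needed an adjusted p under 0.05 and over 1.5-fold. Log2 CPM used a prior count of 0.5, and intervals are 95%. Age trends were chosen by BIC, with a margin of 6 over no trend and of 2 over a line. A trend was late where its inflection came after 21 months. Correlations used 100000 permutations (SciPy 1.17.1), two-sided. Library totals, 17555294 to 85316329 counts, set the precision, and PCR duplicates were not marked by molecular identifiers.

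Genes were named if they were among the 4, were the 3 most alike to one of them by Pearson's r of group means, or were called in a list of related genes. Some genes of these lists are counted but not reported here by name. The members and lists were chosen with earlier results of these data known. Scripts were tested on simulated data. The alternatives were Bonferroni adjustment, RLE and total-count scaling, no filter, edgeR, DESeq2 1.42.0, quality weights, a replicate block, leaving out libraries and, both chosen after seeing the data, leaving out the 3 libraries that stood apart and using the 24-month libraries for correlations.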

Additional observations from a re-analysis of the deposited data

Results flagged for a closer look

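The change from 6 to 27 months differed between 2 muscles in 8 comparisons of Scn4a, Scn4b and Scn3b, by a test of the difference itself (limma-voom, adjusted over all genes). The share of all genes called in these comparisons ran from 7.32% (tibialis anterior minus gastrocnemius) to 21.6% (gastrocnemius minus diaphragm). Bonferroni adjustment ended the Scn3b calls, and with total-count scaling the Scn4a differences fell under 1.5-fold. For Scn4b the differences from diaphragm were -0.99 in gastrocnemius, -1.02 in soleus and -1.12 in tibialis anterior on the log2 scale. Scn4a differed from diaphragm by -0.73 in gastrocnemius and -0.60 in tibialis anterior. Scn3b changed more in gastrocnemius than in diaphragm by 1.37, and its change in soleus and tibialis anterior was below that in gastrocnemius, by -1.25 and -0.78. The change of Scn2b was above that of diaphragm by 1.85 in soleus and 1.48 in tibialis anterior. These are values with no test, since Scn2b passed the filter only through its diaphragm libraries, and group sums were at most 83 counts at those ages. An outlier test run in 12 of the 28 groups marked no library. Over all genes, the libraries named earlier still stood apart from their groups.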

How the results depend on the processing

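Calls of Scn4b in soleus and tibialis anterior and of Scn3b in gastrocnemius from 6 to 27 months were kept under all alternatives run. Depth limited Scn2b, whose counts per library were too few for a stable size. Leaving out a library gave Scn4a -0.61 to -0.52 in gastrocnemius, 0.08 to 0.14 in diaphragm, -0.20 to -0.14 in soleus, and Scn3b -0.026 to 0.16 in diaphragm (below 0 without diaphragm 27 months replicate 5). Scn4b gave -0.92 to -0.75 in gastrocnemius, -1.01 to -0.79 in soleus and -1.05 to -0.86 in tibialis anterior, and Scn3b 1.37 to 1.59 in gastrocnemius and 0.64 to 0.81 in tibialis anterior. No call changed when the 21-month libraries with a different running number were left out. All 12-month libraries of diaphragm, soleus and tibialis anterior carried that same series of running numbers. Age and series cannot be told apart at 12 months in these muscles. The cause of the shifts listed next was not tested.

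With Bonferroni adjustment the calls lost in the joint fit were those of Scn3b. These were gastrocnemius minus diaphragm (1.37, adjusted p = 0.082), soleus minus gastrocnemius (-1.25, adjusted p = 0.079) and tibialis anterior minus gastrocnemius (-0.78). The call of Scn3b in tibialis anterior (0.72) was lost as well. The Scn2b changes minus diaphragm, 1.85 in soleus and 1.48 in tibialis anterior, are values with no test. Scn2b entered that fit only through diaphragm. Under Bonferroni adjustment 1 channel gene was called in tibialis anterior, where 21.7% of all genes tested were called. Without a filter Scn3b of tibialis anterior minus gastrocnemius was -0.78 (adjusted p = 0.053) and no longer called. Scn4a of gastrocnemius was -0.60 and called, where 20.2% of all genes were called. Soleus then had 2 channel genes called, Scn2b included, against 12.9% of all genes. Scn2b of tibialis anterior minus diaphragm, a value with no test, was 1.51 without a filter, 0.95 with edgeR and 1.38 with quality weights.

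With RLE scaling Scn4a of gastrocnemius was -0.59 and called, Scn3b of tibialis anterior minus diaphragm was 0.62 and called (adjusted p = 0.037), and Scn4a of tibialis anterior minus diaphragm was -0.57 and no longer called. Total-count scaling gave Scn4b of gastrocnemius -0.57 (1 gene called there), Scn4a minus diaphragm -0.44 in gastrocnemius and -0.28 in tibialis anterior, and Scn3b of tibialis anterior minus gastrocnemius -0.75 (adjusted p = 0.065, 0 genes called), all under the threshold. The same scaling added calls for Scn3b of tibialis anterior minus diaphragm (0.90) and minus soleus (0.62). The split of all genes called in gastrocnemius moved from 1787 higher and 921 lower to 3268 and 364, in soleus from 1121 and 704 to 1620 and 466, and in tibialis anterior from 2026 and 1219 to 3623 and 442.

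Signs turned only where the value as reported was not called. With edgeR these were Scn2b of tibialis anterior minus gastrocnemius (-0.0047), Scn2b at 27 months of gastrocnemius minus diaphragm (-0.072), Scn4b of soleus minus gastrocnemius (0.053) and, also with DESeq2, Scn3b of soleus from 6 to 24 months (0.052 and 0.054). With total-count scaling they were Scn2b of gastrocnemius minus diaphragm at 27 months (-0.15) and soleus minus gastrocnemius at 6 months (0.11), Scn3b of soleus from 6 to 24 months (0.011) and tibialis anterior from 21 to 24 months (0.037), Scn4a of gastrocnemius minus diaphragm at 27 months (-0.047) and soleus from 24 to 27 months (0.053), Scn4b of tibialis anterior minus soleus (0.066), and r of Scn3b and Chrnd in soleus (0.040). Scn2b of gastrocnemius minus diaphragm at 27 months was -0.043 without a filter and -0.23 with quality weights, which also gave from 6 to 24 months -0.048 for Scn3b in tibialis anterior, -0.0019 for Scn4a and -0.0077 for Scn4b in diaphragm, and 0.020 for Scn4a in gastrocnemius from 24 to 27 months. Without the 3 libraries that stood apart Scn3b of tibialis anterior from 6 to 24 months was -0.060.

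At 24 months r had the other sign in diaphragm for Scn2b with Scn3b (-0.27), Scn4b (-0.47) and Scn4a (-0.29) and for Chrnd with Scn3b (-0.35), Scn4a (0.38) and Scn4b (0.15). It also turned in gastrocnemius for Scn2b with Scn4b (-0.15) and Scn4a (-0.090), and in soleus for Chrnd with Scn3b (0.28) and Scn4a (-0.75), which passed at that age (permutation adjusted p = 0.0199). In all, 10 relations that missed the adjustment by r at 27 months passed it by r at 24 months with their sign kept.

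Replicate numbers were not taken to pair muscles. Samples with the same number correlated over 0.1 in 60 of 83 pairs of diaphragm and tibialis anterior but in 26 of 72 of diaphragm and gastrocnemius. The same number gave the best match in 42 of 83 pairs of diaphragm and tibialis anterior, 43 of 84 of soleus and tibialis anterior and 36 of 83 of diaphragm and soleus. With gastrocnemius it did so in 13 of 72 (diaphragm), 13 of 73 (soleus) and 19 of 73 (tibialis anterior). The joint fit treated all muscles as unpaired, whether or not they share rats. With the replicate block Scn3b of tibialis anterior minus diaphragm was 0.59 (adjusted p = 0.017, now called). Scn2b of the same pair was 1.35, a value with no test. Scn2b of gastrocnemius minus diaphragm at 27 months was -0.12 with the block, and no other call changed.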
